A study of Drosophila melanogaster with 8 samples.

Results

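The genes described here are 10 Drosophila melanogaster genes for receptors and secreted proteins of haemocytes, the blood cells of the fly: NimB1, NimB2, NimB4, NimB5, NimC1, NimC4, eater, Sr-CI, Sr-CII and Hml. They were found by symbol in the deposited gene annotation, and all 10 were among the 14865 genes of the deposited count table. RNA of whole flies was compared between mutants of the nuclear receptor gene Hr39, labelled DHR39, and controls. The deposited sample sheet gives the genotypes as DHR393.48 and w1118. The groups held 3 DHR39 and 5 control libraries, the controls being marked by the submitters as shared with another series. All flies were adults of 8 days, kept on food with 8% yeast and 9% sugar. The labels do not give the lesion of the allele, the sex of the flies or the number of animals per library, and nothing in them says that the replicates were separate cultures. The p-values therefore measure the spread between these libraries, which may be technical.

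Haemocytes circulate or sit under the cuticle, and most of those in the adult fly are plasmatocytes, macrophage-like cells that take up bacteria and dying cells. Nimrod proteins carry repeats of an EGF-like fold. The NimC members and eater span the cell membrane and bind particles to be engulfed, while the NimB members are secreted. Sr-CI and Sr-CII are class C scavenger receptors, and Sr-CI binds bacteria. Hml encodes hemolectin, a large secreted clotting protein whose regulatory region is widely used to mark haemocytes.

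Counts per library totalled between 16072497 and 19935574. Levels are given as CPM, counts scaled to a common library size by TMM, as means ± SD with n = 5 controls and n = 3 DHR39. Changes are log2 fold changes, DHR39 minus control, ± SE, from edgeR's quasi-likelihood test across 13506 genes. A gene is said to have risen or fallen where the adjusted p was under 0.05. Hr39 itself fell by 0.42 ± 0.10 on the log2 scale, from 36.2 ± 2.38 to 27.0 ± 2.89 CPM (edgeR adjusted p = 0.0119). It no longer passed edgeR's test without DHR39 replicate 1 (0.0515), without DHR39 replicate 2 (0.0508) or with library totals alone (0.0593). Several tissues differed between the groups as measured by their markers. The summed level of 5 fat body markers was between 4335 and 6595 CPM in controls and between 2963 and 3582 CPM in DHR39. Of the 3 that could be tested, apolpp, Lsp2 and Lsp1beta, 3 fell, and 1 fell with robust edgeR or without DHR39 replicate 1 or 2. The summed level of 5 accessory gland markers was between 3528 and 6645 CPM in controls and between 670 and 968 CPM in DHR39. Of 5 gut markers 3 fell. Of 5 muscle markers 1 fell, or 2 in 4 of 16 alternative fits, among them the fit without DHR39 replicate 1. The summed levels of eye, testis and female markers overlapped between the groups. The female markers Yp1, Yp2 and Yp3 were low, with sums of 10.6 to 16.8 CPM in controls and 8.87 to 14.3 CPM in DHR39. Testis markers summed to 3520 to 4744 CPM in controls. The part of these tissue differences in the results below was not tested.

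In controls the 10 genes spanned a wide range of levels. Per kb of exon, NimB2 was the most abundant, at 95.7 ± 12.1 RPKM, CPM divided by exon length in kb. A middle group followed with means close to each other, Hml at 15.1 ± 3.70, NimB5 at 14.4 ± 2.56, NimC1 at 11.9 ± 2.26, Sr-CI at 11.3 ± 2.65 and NimB4 at 9.10 ± 1.19 RPKM. Neighbours within this group overlapped in their control libraries. NimB1 lay just below it at 5.73 ± 1.21 RPKM, with every control library under the lowest NimB4 value. Sr-CII, at 2.09 ± 0.499 RPKM, and eater, at 1.73 ± 0.487 RPKM, overlapped each other. NimC4 was the lowest at 0.383 ± 0.427 RPKM, and 4 of the 5 control libraries held between 1 and 7 counts of it.

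**Figure D1:**
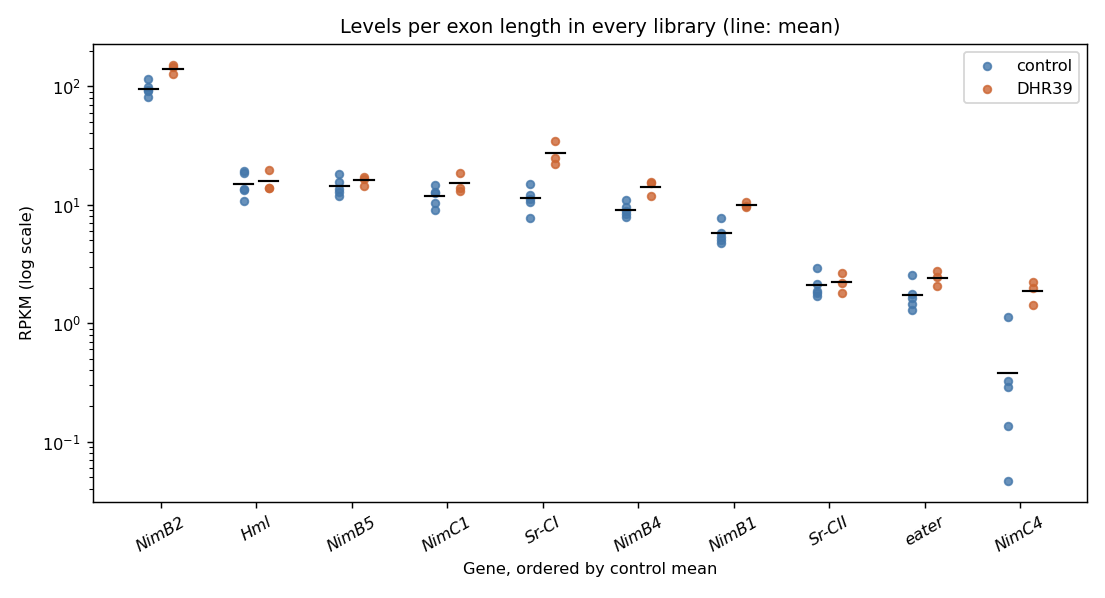
RPKM on a log scale for each gene in every library, ordered by the control mean, with a line at each group mean. NimB2 stands apart from the rest at 95.7 RPKM in controls, and NimC4 is the lowest at 0.383 RPKM.

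The DHR39 flies held more RNA of NimB1, NimB2, NimB4 and Sr-CI, which are 4 of the 9 genes that passed the count filter in each group. The other 5 of these 9, NimB5, NimC1, eater, Sr-CII and Hml, did not pass the test. The remaining gene, NimC4, entered the test only through its DHR39 libraries. That selection favours a difference, so its values are given as a description. Over all tested genes 17.3% passed the test, 6.58% as higher in DHR39 and 10.7% as lower. None of the 10 genes fell by edgeR, DESeq2 or limma voom, and 0 of them were lower at an unadjusted p under 0.05. NimB1, NimB2, NimB4 and Sr-CI were also the 4 of these 9 whose DHR39 values all lay above all control values, a pattern found for 9.74% of tested genes, with the opposite pattern in 13.4%. The median log2 fold change of the 9 genes was 0.48, against -0.0044 over all tested genes. With library totals alone as the scale the median over all genes moved to 0.14, and 6 of the 9 genes rose, against 14.8% of all genes that rose and 7.7% that fell. In RNA of whole flies, more haemocytes, more RNA per haemocyte and RNA from other tissues cannot be told apart.

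**Figure D2:**
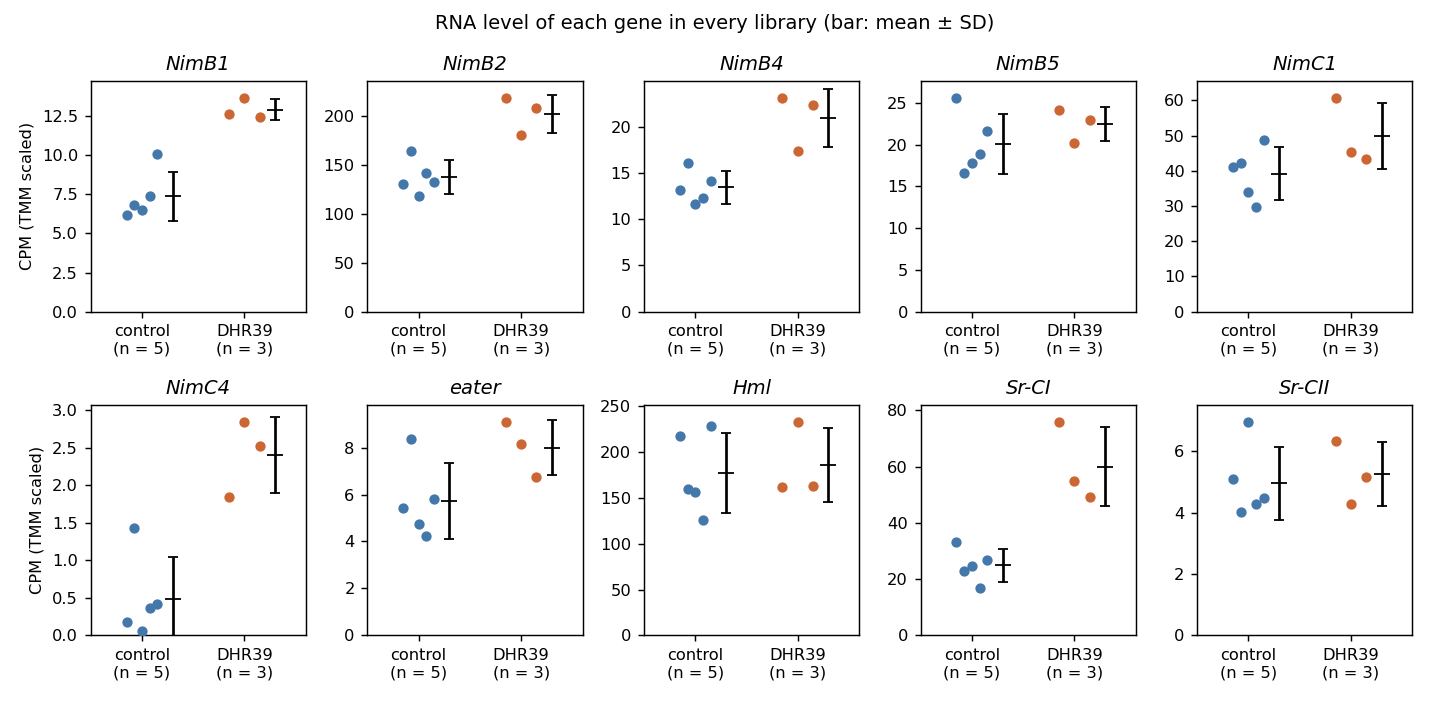
CPM of each of the 10 genes in every library, 5 control and 3 DHR39, with the mean and SD of each group beside the points. For NimB1, NimB2, NimB4, NimC4 and Sr-CI all DHR39 points lie above all control points, and for the other 5 genes the groups overlap.

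Of the secreted NimB proteins NimB1, NimB2 and NimB4 rose and NimB5 did not pass. NimB2 (FBgn0028543, on 2L from 13965012 to 13967018, minus strand) was the most abundant per kb of exon. It stood at 131, 164, 118, 142 and 133 CPM in the controls and at 218, 181 and 208 CPM in DHR39. The lowest DHR39 library was above the highest control. NimB2 rose by 0.56 ± 0.11 on the log2 scale, which is 1.47-fold (edgeR adjusted p = 0.00401). Counting error alone would give a coefficient of variation of 2.04% among its controls, against 12.6% observed, so depth was not what limited this gene.

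NimB4, a secreted protein that binds apoptotic cells and acts in their clearance (FBgn0028542, 2L from 13968280 to 13969976, minus strand), was at 13.2, 16.1, 11.6, 12.3 and 14.1 CPM in the controls. Its DHR39 libraries held 23.1, 17.4 and 22.3 CPM, and the groups did not overlap, although DHR39 replicate 2 lay close to the highest control. NimB4 rose by 0.64 ± 0.13 (edgeR adjusted p = 0.00573). NimB2 and NimB4 varied together from library to library: the ratio of their CPM ran from 9.42 to 11.5 in the controls and from 9.33 to 10.4 in DHR39. In both genes control replicate 2 was the highest control and DHR39 replicate 2 the lowest DHR39 library.

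NimB1 (FBgn0027929, 2L from 13963507 to 13965088, plus strand) was at 6.17, 6.83, 6.48, 7.39 and 10.0 CPM in the controls and at 12.7, 13.7 and 12.4 CPM in DHR39. The DHR39 libraries were close to each other and all above the controls. NimB1 rose by 0.81 ± 0.16 on the log2 scale (edgeR adjusted p = 0.00370). Its last 77 exon bases overlap exons of NimB2 on the opposite strand, and the sources used here do not say if counting respected the strand. The part of NimB2 reads in the NimB1 value was not tested.

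NimB5, a secreted protein of the fat body that adjusts the number and adhesion of haemocytes to nutrition (FBgn0028936, 2L from 13970177 to 13972173, plus strand), did not follow the other NimB genes. It stood at 25.6, 16.6, 17.8, 18.9 and 21.6 CPM in the controls and at 24.1, 20.2 and 23.0 CPM in DHR39. The DHR39 values lay inside the control range. Its log2 fold change was 0.16 ± 0.14, with a 95% interval from -0.15 to 0.46 (edgeR adjusted p = 0.527). The value ran from 0.098 without control replicate 2 to 0.26 without control replicate 1. A rise as large as the estimates for NimB2, NimB4 or NimB1 lay outside this interval, and no test of the difference between genes was made. The summed level of the fat body markers, most of it apolpp, was lower in every DHR39 library than in any control. Its part in the NimB5 values was not tested.

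Among the membrane receptors, NimC1, the plasmatocyte antigen P1 and a receptor for bacteria (FBgn0259896, 2L from 13973158 to 13976769, minus strand), was at 41.1, 42.3, 34.1, 29.6 and 48.7 CPM in the controls. In DHR39 it was at 60.6, 45.5 and 43.3 CPM, and only DHR39 replicate 1 exceeded the highest control. NimC1 had a log2 fold change of 0.35 ± 0.16, with a 95% interval from -0.0063 to 0.70 (edgeR adjusted p = 0.186). It was 0.18 without DHR39 replicate 1, and it passed the test with library totals alone (edgeR adjusted p = 0.0411).

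The gene eater encodes a receptor for bacteria that also holds haemocytes in their places under the cuticle (FBgn0243514, 3R from 27095867 to 27099679, minus strand). It was at 5.42, 8.38, 4.76, 4.22 and 5.83 CPM in the controls and at 9.10, 8.15 and 6.74 CPM in DHR39. Control replicate 2 lay among the DHR39 values, so the groups overlapped. The log2 fold change was 0.48 ± 0.21 (95% interval from 0.024 to 0.94, edgeR adjusted p = 0.153). It passed without control replicate 2 (0.0212), with the replicate names of the sample sheet as a block (0.0328) and with library totals alone (0.0455).

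NimC4, also named Simu, is a receptor for apoptotic cells on macrophages and glia (FBgn0260011, 2L from 14047582 to 14048863, plus strand). Its counts were 3, 25, 1, 7 and 7 in the controls and 32, 60 and 43 in DHR39. In CPM these were 0.173, 1.43, 0.0594, 0.370 and 0.416 in the controls and 1.84, 2.84 and 2.52 in DHR39, so that control replicate 2 came closest to the mutants. Its log2 fold change was 2.28 ± 0.58, with a 95% interval from 1.02 to 3.53 (edgeR adjusted p = 0.0170). Since only 1 control library reached the level of the count filter, this p does not support a rise. It did not pass when DHR39 replicate 2 (edgeR adjusted p = 0.0695) or DHR39 replicate 3 (0.0555) was left out, and the log2 fold change was 3.20 without control replicate 2. The gene lies within the span of nAChRalpha5 on the same strand and shares no exon base with it.

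The scavenger receptor Sr-CI (FBgn0014033, 2L from 4121702 to 4124153, plus strand) had the smallest adjusted p of the 10 genes. It was at 33.1, 23.0, 24.6, 17.0 and 26.9 CPM in the controls and at 75.9, 55.0 and 49.1 CPM in DHR39. Every DHR39 library was well above the highest control. Sr-CI rose by 1.27 ± 0.19, which is 2.41-fold (edgeR adjusted p = 0.000591). With each of the 8 libraries left out in turn its adjusted p was at most 0.00379 (edgeR). Per kb of exon, its mean in DHR39 was 27.2 ± 6.39 RPKM, above that of Hml at 15.8 ± 3.44 RPKM, whereas in controls it was below Hml.

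Sr-CII, its relative (FBgn0020377, 2R from 12208893 to 12212155, minus strand), was at 5.08, 4.02, 6.95, 4.28 and 4.46 CPM in the controls. The DHR39 libraries held 6.33, 4.27 and 5.16 CPM and lay inside the control range. The log2 fold change was 0.081 ± 0.21, with a 95% interval from -0.38 to 0.54 (edgeR adjusted p = 0.859). The control libraries held 70 to 117 counts of it. Counting error alone gives 10.8% of variation at that depth, against 23.9% observed.

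Hml (FBgn0029167, 3L from 13846054 to 13860001, plus strand) varied more between libraries than between genotypes. It was at 217, 160, 157, 125 and 228 CPM in the controls and at 162, 233 and 163 CPM in DHR39. The highest value of all was DHR39 replicate 2, while the other DHR39 libraries lay inside the control range. The log2 fold change was 0.071 ± 0.19, with a 95% interval from -0.35 to 0.49 (edgeR adjusted p = 0.864). Counting error alone would give a variation of 1.80% among the controls, against 24.6% observed.

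Ratios within a library compare these genes without the scaling between libraries. Sr-CI divided by Hml was between 0.118 and 0.157 in the controls and between 0.236 and 0.468 in DHR39, so the groups were apart. Sr-CI divided by NimC1 was 0.804, 0.544, 0.721, 0.574 and 0.551 in the controls and 1.25, 1.21 and 1.13 in DHR39, again apart. NimC1 divided by Hml ran from 0.189 to 0.265 in the controls and from 0.195 to 0.374 in DHR39 and overlapped. NimB2 divided by Hml also overlapped, from 0.583 to 1.13 in the controls and from 0.776 to 1.35 in DHR39. The genes of the ratios were chosen after their values were seen, and no test was made.

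**Figure D3:**
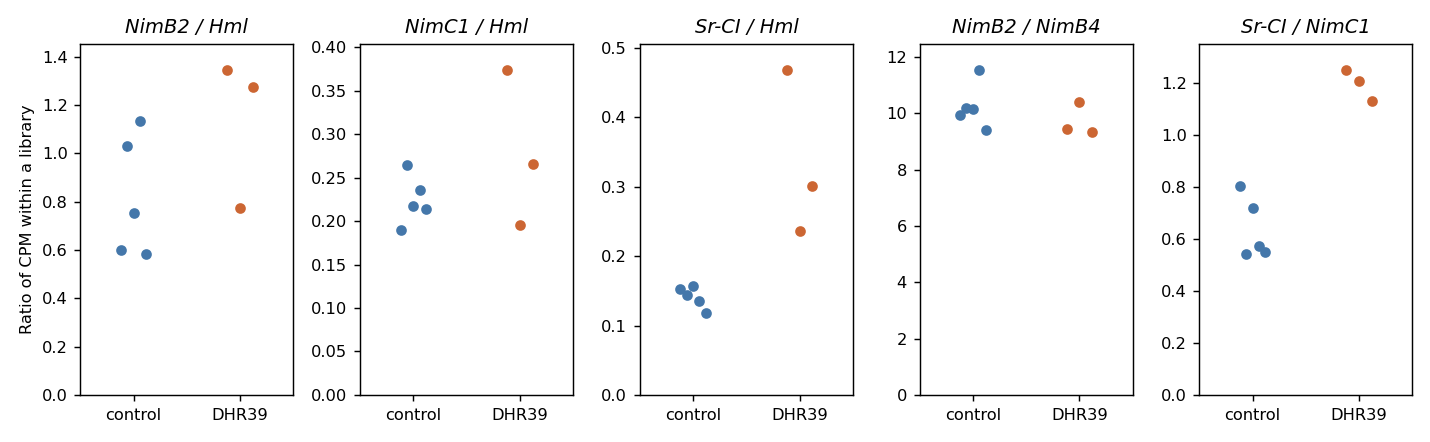
Ratio of the CPM of 2 genes within each library, for 5 control and 3 DHR39 libraries, on axes that start at 0. Sr-CI divided by Hml or by NimC1 separates the groups, whereas NimB2 divided by NimB4 runs from 9.33 to 11.5 over all 8 libraries.

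The sample sheet gives 3 pairs of libraries with the same replicate name, 1 of each genotype. NimB1, NimB2, NimB4, NimB5, NimC4, eater and Sr-CI were higher in the DHR39 library in 3 of 3 pairs. For Sr-CI the log2 ratios within pairs were 1.62, 1.69 and 0.87, and for NimB2 they were 0.89, 0.35 and 0.65. NimC1 was higher in 2 pairs, at 0.83 and 0.62, and lower in the pair of DHR39 replicate 3, at -0.17. Hml differed widely between pairs, at 0.050, 0.89 and -0.48, in the order of DHR39 replicates 1 to 3, which is the order for all these ratios. The authors' deposited table that was taken as the DHR39 comparison, because its values match, calls NimB1, NimB2, NimB4, NimC4 and Sr-CI. Its log2 fold changes are 1.161 for Sr-CI, 0.54 for NimB2, 0.61 for NimB4, 0.72 for NimB1 and 1.23 for NimC4. NimB2 is marked there as up under DHR393.48 and under a further deposited comparison, E7818.37. NimB1, NimB4, NimC4 and Sr-CI are marked as up under DHR393.48 alone. Since that table was picked by its values and draws on these libraries too, it is no independent check.

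The 10 Nimrod genes of arm 2L lie within 91.3 kb, from NimA to NimC4 at 13957539 to 14048863, and 6 of the 10 genes studied here are among them. Of the 8 Nimrod genes in this region that passed the count filter in each group 5 rose: NimB1, NimB2, NimB3, NimB4 and NimC2. NimB1 to NimB4 are 4 direct neighbours, and all 4 rose. NimB3 was at 3.12, 4.59, 3.21, 3.43 and 3.51 CPM in the controls and at 7.71, 6.97 and 5.63 CPM in DHR39, and it rose by 0.92 ± 0.18 (edgeR adjusted p = 0.00366). NimC2 rose by 0.98 ± 0.24 (0.0133), which was lost on leaving out DHR39 replicate 1 (0.0580) or DHR39 replicate 3 (0.0566). It shares 527 exon bases with rk on the opposite strand. NimA, at the edge of the region, did not pass, at 0.23 ± 0.21 (edgeR adjusted p = 0.535).

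No interspersed gene was called higher. Of the 7 tested genes in the region that are not Nimrods, 1 fell, CG18095, by 0.97 ± 0.087 on the log2 scale (edgeR adjusted p = 1.2e-05), and the other 6 did not pass. Not passing does not show a lack of change. He, at 0.711 CPM in controls, had a 95% interval from -1.06 to 0.79, which holds the estimates for NimB2 and NimB4. Hr39 lies on the same arm, 7188 kb from the end of the region. Over all tested genes of arm 2L, 8.27% rose, against 9.47% on 2R, 4.43% on 3L, 5.68% on 3R and 4.93% on X. NimB1, NimB2, NimB4 and Sr-CI all lie on 2L, where 7 of the 10 genes are located.

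**Figure D4:**
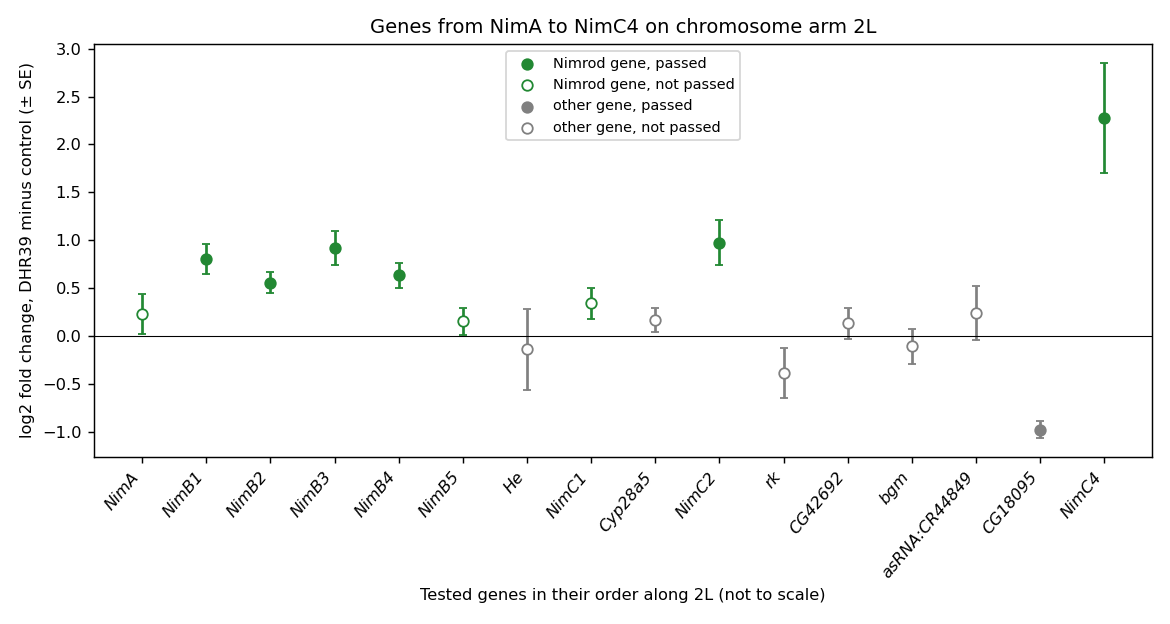
Log2 fold change ± SE of the 16 tested genes from NimA to NimC4, in their order along arm 2L, with filled points for genes that passed the edgeR test. The 6 filled Nimrod points, among them NimC4 that entered the test only through DHR39, are all above 0, and the 1 filled point of another gene, CG18095, is below 0.

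Other Nimrod and scavenger receptor genes were taken as further lists. Of 4 tested further Nimrod genes 2 rose, NimB3 and NimC2 above, and only 1 rose without DHR39 replicate 1 or DHR39 replicate 3. Draper (drpr), the engulfment receptor that acts with NimC4, did not pass, at 0.18 ± 0.080 (edgeR adjusted p = 0.159), with all 3 DHR39 libraries above the controls. It passed with library totals alone (0.0141) and when the 50 top genes were dropped from the totals (0.0325). Of 12 tested scavenger receptor genes 1 rose and 2 fell, with a median log2 fold change of 0.0035, which is close to the shares of 6.58% and 10.7% over all genes. Sr-CIV, a class C gene, rose by 0.85 ± 0.22 from 2.66 ± 0.380 CPM in controls (edgeR adjusted p = 0.0189), and its call ended without DHR39 replicate 1 (0.0849) or DHR39 replicate 3 (0.0970). Of the CD36-like genes, emp fell by 0.74 ± 0.11 (edgeR adjusted p = 0.000438). The carotenoid transporter gene ninaD fell by 1.66 ± 0.48 (0.0324), and that call ended without any 1 of 5 of the 8 libraries: control replicates 3 and 5 and DHR39 replicates 1, 2 and 3.

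Other markers of plasmatocytes went both ways. Of 9 markers, He, Pxn, srp, ush, Col4a1, vkg, Ppn, crq and Pvr, only Pvr rose, with 3 higher and 0 lower at an unadjusted p under 0.05, against 3 with library totals alone and 0 without control replicate 3, DHR39 replicate 2 or DHR39 replicate 3. Their median log2 fold change was -0.017, and their summed level was between 1155 and 1596 CPM in controls and between 1407 and 1562 CPM in DHR39. Pvr, a growth factor receptor gene, rose by 0.29 ± 0.089 (edgeR adjusted p = 0.0460), and its call ended without any 1 of control replicates 2, 3 and 5 and DHR39 replicates 1, 2 and 3. The extracellular matrix genes Ppn and Col4a1 did not pass, at 0.40 ± 0.17 (edgeR adjusted p = 0.136) and -0.13 ± 0.12 (0.545), and Ppn passed without control replicate 5 (0.0247), with library totals alone (0.0276) and when the 50 top genes were dropped from the totals (0.0490). The largest estimate of the 9 was that of ush, named after its values were seen, at 0.48 ± 0.16 (edgeR adjusted p = 0.0645). With the replicate block 2 of the 9 rose, Pvr and a marker that was neither Ppn nor Col4a1. Values of ush under the alternatives are not given here. Several of these genes are also expressed outside haemocytes. He, which encodes the haemocyte surface protein Hemese and was singled out after its values were seen, was detected at only 0.344 to 0.951 CPM in every library. He entered the test only through its control libraries.

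**Figure D5:**
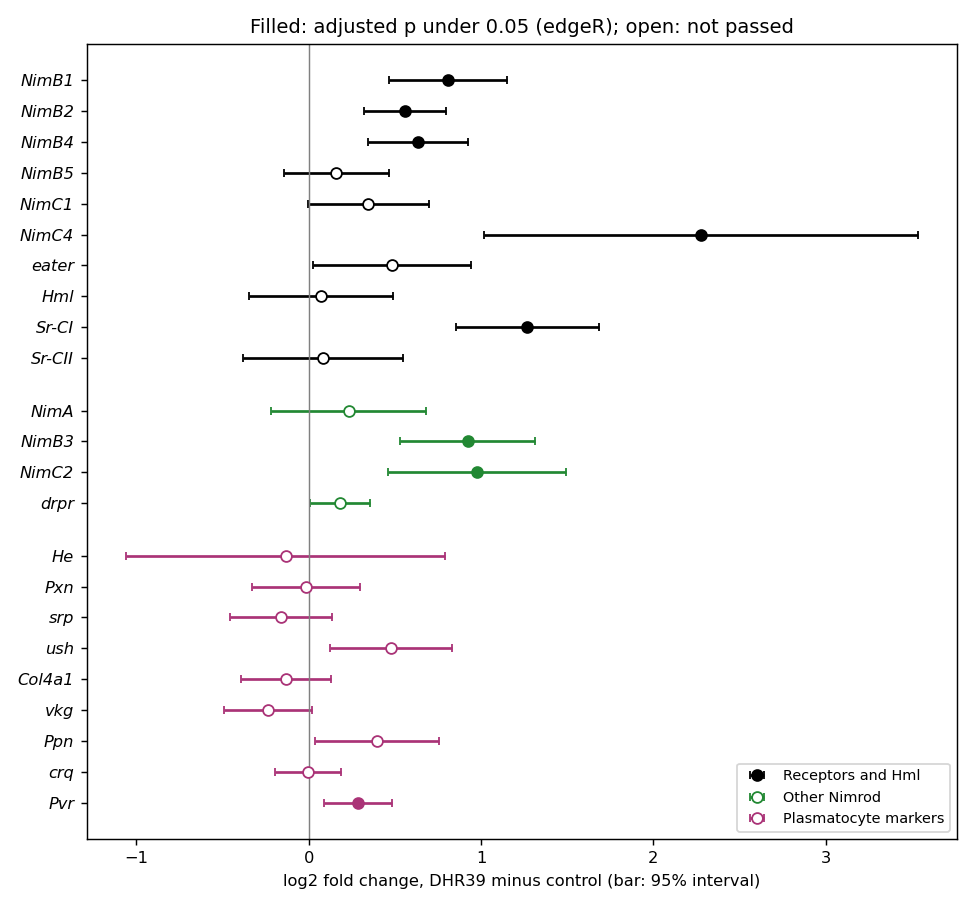
Log2 fold change, DHR39 minus control, with its 95% interval for the 10 genes, 4 further Nimrod genes and 9 plasmatocyte markers, filled where the edgeR adjusted p was under 0.05. The plasmatocyte markers centre near 0, at a median of -0.017, and Sr-CI and NimC4 lie farthest to the right.

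Genes that act beside these receptors in phagocytosis were taken as further lists. Of 10 other phagocytic receptors and opsonins 4 rose, with a median log2 fold change of 0.27. The integrin gene scb went from 103 ± 20.0 to 255 ± 3.37 CPM, a rise of 1.31 ± 0.14 (edgeR adjusted p = 4.3e-05). Its partner Itgbn, a beta integrin gene that acts in phagocytosis, rose by 0.60 ± 0.11 (0.00314). The thioester protein gene Tep1 rose by 1.52 ± 0.30 from 0.879 ± 0.256 CPM (edgeR adjusted p = 0.00367). PGRP-SA, a recognition protein of the Toll pathway, rose by 0.59 ± 0.17 (0.0363), a call that ended without any 1 of control replicates 1, 2, 3 and 4 and DHR39 replicates 1 and 3.

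Of 14 tested genes of the engulfment pathway, drpr among them again, 3 rose and 1 fell, with a median of 0.15. The adaptor gene ced-6 rose by 0.38 ± 0.094 (edgeR adjusted p = 0.0141), and the call ended without DHR39 replicate 2 (0.0605) or DHR39 replicate 3 (0.0741). Cdc42 and Shark rose by 0.27 ± 0.075 (0.0265) and 0.32 ± 0.10 (0.0456), and the adaptor gene Crk fell by 0.28 ± 0.080 (0.0333). The calls of Cdc42 and Crk ended without any 1 of control replicates 1, 4 and 5 and DHR39 replicates 2 and 3, and that of Shark without any 1 library other than control replicate 5, and with the replicate block (0.0529). With library totals alone 7 of the 14 rose and 0 fell. Without DHR39 replicate 2 or DHR39 replicate 3 the count of rises was 0, and without control replicate 1 or 4 it was 1.

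For each of the 10 genes, the gene with the most similar profile was taken as the one with the smallest root mean square difference in log2 CPM over the 8 libraries, each profile centred on its own mean. NimB2 was closest to fon, a clotting gene, at 0.0393, and NimB4 to CG44325, at 0.0668. NimB1 was closest to ast at 0.0775, Sr-CII to CG15196 at 0.0657, NimC1 to Task7 at 0.0723 and NimB5 to Cad96Ca at 0.0808. The likeness was weaker for Hml with CG17108, at 0.140, eater with Brd8, at 0.146, Sr-CI with CG42711, at 0.199, and NimC4 with Drsl2, at 0.398. Among the 10 genes themselves the closest pair was NimB2 and NimB4, at 0.0930. These are the best of 12809 genes compared and are given as a description.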

How the data were processed

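Poly(A) RNA of whole flies was sequenced as stranded paired-end libraries, per the labels' protocols. The submitters' processing notes name the tools STAR 2.6.1b, featureCounts 1.6.3, cutadapt 1.16 and DESeq2, in its releases 1.20.0 and 1.22.2, and the builds dm6 and BDGP6. Raw counts per gene were deposited as a table of 14865 genes. The authors' deposited comparison table gives log2 fold changes and adjusted p-values. The sheet named for the mutant is labelled E7818.37 in the deposited summary, so another sheet was used, picked because its values match those found here (correlation of log2 fold changes 0.920 across genes), which makes that correlation no check.

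Samples were grouped by genotype label and numbered within a group by accession. filterByExpr left 13506 genes, all 10 genes included. In R 4.3.3, edgeR 4.0.16 gave TMM factors and two-sided quasi-likelihood tests with Benjamini-Hochberg adjustment. SE is the size of the log2 fold change divided by the square root of F. Exon lengths and positions came from Ensembl release 115 on BDGP6. In single libraries 3 counts correspond to 0.142 to 0.178 CPM. Intervals of counting error cover counting only. Alternatives were library totals alone, DESeq2 size factors, totals without the 50 most abundant genes, no filter, robust edgeR, DESeq2 1.42.0, limma 3.58.1 voom, a replicate block and leaving out each library.

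No pair of replicates was alike within counting error: their chi-square divided by its degrees of freedom was 17.0 to 42.9. Replicate names in the sample sheet, not in the labels, join 3 pairs. Deviations from group means correlated at 0.215, 0.108 and 0.183 within them, which all exceed 0.1, the criterion used. DHR39 replicate 1 and control replicate 2, which differ in name, also exceeded it at 0.101. The criterion therefore does not single out the named pairs. Their 3 correlations were still the highest of all pairs of a DHR39 and a control library, so a shared effect within named pairs remains possible. The reported values come from the fit without this block. The blocked value is given where it changes the call of a gene studied here or of a gene named from the lists by rule. For other genes of the lists only the counts with the block are given.

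The 10 genes and the lists were chosen with earlier results of these data known. Named from the lists were up to 4 genes per list that passed with the smallest p and, for the Nimrod and plasmatocyte lists, up to 2 of highest CPM that did not, a restriction of the rule, which allowed these for every list. Promoter and protein sequences were not analysed here.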

Additional observations from a re-analysis of the deposited data

Results flagged for a closer look

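NimC4 in control replicate 2, at 1.43 CPM, stood apart from the other 4 controls, which were between 0.0594 and 0.416 CPM. The gap to the nearest control was 0.741 of the range of the 5 controls, above Dixon's 95% critical value of 0.71. Chance alone flags about 1 in 20 such groups, and 10 genes were examined. The library held 25 counts of the gene. Without it the log2 fold change of NimC4 was 3.20 in place of 2.28 (edgeR adjusted p = 0.000655 in place of 0.0170). It was the only control library at the level of the count filter, and NimC4 entered the test only through DHR39. Neither p therefore supports a rise.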

How the results depend on the processing

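The 10 genes gave 160 values over 16 alternatives, of which 151 kept their direction and their side of the threshold. NimB1, NimB2, NimB4 and Sr-CI rose under all 16. Between 4 and 7 of the 10 genes, NimC4 included, were called higher, and none lower. The 7 came with library totals alone, where 14.8% of all tested genes rose, against 6.58% in the main fit. With NimC4, the groups of 5 genes did not overlap with TMM, with library totals or with DESeq2 size factors. With TMM, 9.74% of all tested genes had this pattern with DHR39 higher and 13.4% with DHR39 lower. NimC4 entered the test only through DHR39, so its part in these counts is a description. The replicate block changed the call of eater and of no other of the 10 genes, and it ended the call of Shark (0.0529). With the block the log2 fold change of eater was 0.70 (edgeR adjusted p = 0.0328). Near 0, the direction turned for Sr-CII without DHR39 replicate 1, at -0.075, and for Hml without control replicate 4 or DHR39 replicate 2, at -0.035 and -0.12. Leaving out 1 library gave -0.075 to 0.23 for Sr-CII, -0.12 to 0.18 for Hml and -0.024 to 0.44 for NimA. The direction also turned for NimA without DHR39 replicate 3, at -0.024, and for Col4a1 with library totals alone, at 0.015. The causes were not tested.

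Counts of the lists depended on the scale. With library totals alone 3 plasmatocyte markers, 1 crystal cell marker, 2 lamellocyte markers, 7 phagocytic receptors and opsonins and 7 engulfment genes rose, and 0 engulfment genes fell. With totals without the 50 most abundant genes 3 plasmatocyte markers and 5 engulfment genes rose and 0 engulfment genes fell. Plasmatocyte markers that rose numbered 2 with the replicate block, 2 with DESeq2 and 0 without a filter. Scavenger receptors that fell numbered 1 with robust edgeR or voom and 3 with the replicate block or DESeq2. Leaving out 1 library gave, for rises, 1 to 2 further Nimrods, 0 to 1 scavenger receptors, 0 to 1 plasmatocyte markers, 0 to 1 crystal cell markers, 0 to 2 engulfment genes and 1 to 2 clotting factors. For falls it gave 1 to 2 scavenger receptors and 0 to 1 engulfment genes. Depth limits NimC4 most, with counts of 1 to 60.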

Other observations

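Clotting genes of the haemolymph were taken as a separate list. Of 6 tested genes 2 rose, and the median log2 fold change was -0.049. The clot protein gene fon went from 239 ± 33.0 to 358 ± 45.3 CPM, a rise of 0.59 ± 0.12 (edgeR adjusted p = 0.00565), beside Hml, which did not pass. Idgf3 rose by 0.39 ± 0.11 (0.0276). The call of Idgf3 ended without any 1 of 5 of the 8 libraries, control replicates 1, 4 and 5 and DHR39 replicates 1 and 3, which leaves 1 gene that rose.

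Markers of the other haemocyte types did not move together. Of 3 crystal cell markers none passed by edgeR, with 1 higher at an unadjusted p under 0.05, and none passed by DESeq2 or voom. Without DHR39 replicate 1 the count was 1. Of 4 lamellocyte markers 1 rose and 1 was called lower. PPO3, a prophenoloxidase of lamellocytes, rose by 2.61 ± 0.36 from 0.834 ± 0.491 CPM (edgeR adjusted p = 0.000321), and it passed the count filter in each group. The integrin gene ItgaPS5, called lower, held 10 to 60 counts in the controls and 1 to 2 in DHR39. It entered the test only through the controls, a selection that favours a difference. No fold is given because its DHR39 libraries lie under 3 counts. The summed level of the lamellocyte list was between 115.2 and 136.8 CPM in controls and between 126 and 164 CPM in DHR39.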
